A study of Mus musculus with 6 samples.

Results

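The genes described here were 32 genes of the extracellular matrix and of mesenchyme, chosen by gene symbol, in a comparison of CTIP2:GFP+ with CTIP2:GFP- cells from a mouse embryonic stem cell line. They encode collagens, laminins and their linkers, matrix glycoproteins and proteoglycans, and the transcription factors Twist1 and Prrx1. Of the 32 genes, 31 were measured, among 19938 genes in all. The level of Fbn1, which encodes the microfibril protein fibrillin-1, was not analysed here, since no probe set carried its symbol alone. Where several probe sets carried a gene's symbol alone, the brightest on average stands for the gene, and its values are log2 RMA signals, a probe-level summary on which a difference of 1 is a 2-fold change.

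The cells came from 1 knock-in line of 129SVEV embryonic stem cells, in which GFP is expressed with Ctip2 (Bcl11b), a transcription factor of layer V projection neurons. The line was kept on mouse embryonic fibroblast feeder cells that had been mitotically inactivated, and then grown as floating aggregates, at first with the TGF-beta receptor inhibitor SB-431542 and the WNT inhibitor WNT-C59. By the study's methods, a later medium, in use before the days of sorting, is listed without these inhibitors. GFP+ and GFP- cells were separated by flow cytometry on day 11, day 12 and day 13, and both fractions shared the knock-in allele, the feeders and both inhibitors. The study used the comparison of GFP+ with GFP- cells to look for surface molecules of CTIP2-expressing neurons. Each fraction had 1 array per day, so an n of 3 stands for consecutive days of differentiation. The limma model of fraction and day sets a difference against its spread between those days, drawn by eBayes toward a value estimated from all genes. No p-value given here rests on replicate arrays of the same fraction and day. The study's methods say in general terms that data came from independent experiments, and the labels do not tie the 3 days to separate cultures.

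Extracellular matrix is the protein meshwork between cells. Fibrillar collagens such as types I, II, III, V and XI form the fibres of connective tissue and cartilage, whereas laminins, type IV collagen, nidogens and perlecan assemble into the basement membrane, the thin sheet under epithelia and around vessels. In the developing cortex a basement membrane lies at the pial surface, where the end feet of radial glia attach, and fibrillar collagens are typical of the meninges and other mesenchyme.

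The sort and the label were checked first. Bcl11b averaged 8.40 ± 0.44 in GFP+ cells and 6.53 ± 0.32 in GFP- cells (SD, n = 3 each), a difference of 1.87 (limma, adjusted p = 0.0248). Of the 31 members, 27 lay above 4.65, the 20th percentile of all probe set signals, on all 6 arrays. The exceptions were Lum, which encodes the proteoglycan lumican of connective tissue and lay above it on 0 arrays, Postn on 2, Lama4 on 3 and Dcn on 4. Of the genes typical of fibroblasts and mesenchyme, Lum, Postn and Dcn were thus at or near the low end of the signal, while the type I, III, V and VI collagens, Twist1 and Prrx1 lay above that level on all 6 arrays. Prrx1 did so barely, at 4.66 on the day 12 GFP+ array. In a sorted population measured in bulk, fewer cells of a type and less RNA per cell cannot be told apart.

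The arrays were not equally alike. The standard deviation over probe sets was 1.11 on the GFP- array of day 13, against 1.29 and 1.48 on the GFP- arrays of days 11 and 12 and 1.37 to 1.45 on the GFP+ arrays. Compared with the other GFP- arrays, low signals were raised and high signals lowered on that array.

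GFP+ cells were compared with GFP- cells of the same days. Fn1, the fibronectin gene, was the member that passed the test, 3.30-fold lower in GFP+ cells, a call that was lost without day 13, with no replicate block, with median centring and after quantile normalization. The laminin chain Lamb2 and the perlecan gene Hspg2 lay lower in GFP+ cells on every day without passing the test, and the laminin chain Lamb1 lay higher on every day, also without passing. The 7 genes of type I, III, V and VI collagens differed by -0.33 to 0.19 on days 11 and 12. On day 13 all 7 lay lower in GFP+ cells, and their highest signal of the 6 arrays was that of the day 13 GFP- array.

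In the limma model, which takes the day into account and adjusts p over all genes, 1 of 31 members was lower in GFP+ cells, where 0.567% of all genes were. None was higher, where 0.797% of all genes were, and at an unadjusted p under 0.05 the counts were 1 member higher, where 9.58% of all genes were, and 5 lower, where 5.96% were. By the methods' t-test 0 members passed in either direction after adjustment, and 0 were higher and 6 lower at an unadjusted p under 0.05, where 4.85% and 3.96% of all genes were. In 22 of 31 members the mean difference was below 0, as in 59.0% of all genes. The median difference of the members was -0.20, and that of all genes was -0.05. Without day 13 the mean difference was below 0 in 18 members (54.6% of all genes) and the median was -0.063 (-0.018 over all genes). Without the day 13 GFP- array, in the fit with no block, it was below 0 in 17 members (53.3% of all genes) and the median was -0.035 (-0.011 over all genes). Counted by day, 12 members were lower on all 3 days, as were 21.4% of all genes, and 2 were higher on all 3 days, as were 16.9%. In 7 members every GFP+ array lay below every GFP- array, a pattern that 7.85% of all genes showed, and in 0 members did every GFP+ array lie above, which 9.05% showed. Those 7 were Fn1, Lamb2, Hspg2, Lama5, Lama4, Col5a2 and Dcn.

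**Figure D1:**
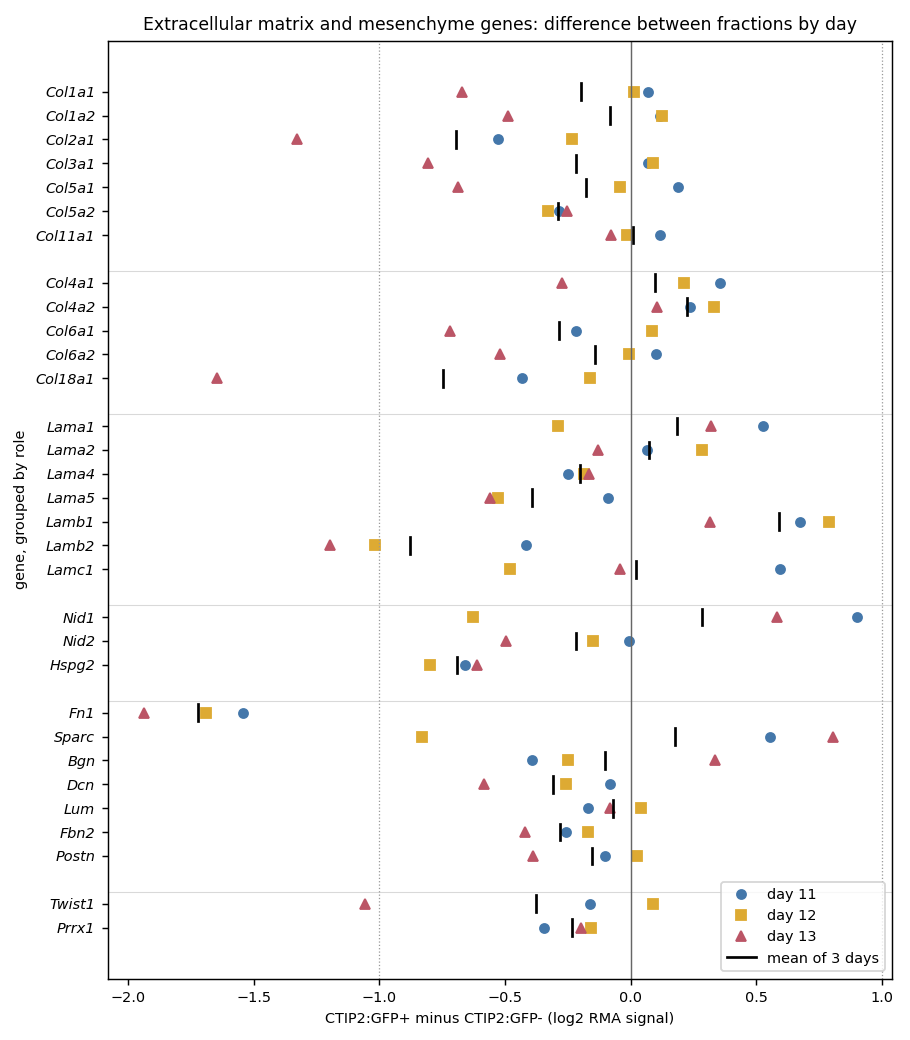
GFP+ minus GFP- difference in log2 RMA signal (x axis) for each of the 31 measured genes (y axis, grouped by role) on day 11 (circles), day 12 (squares) and day 13 (triangles), with the mean of the 3 days as a vertical bar and dotted lines at 2-fold. Fn1 lies past -1 on every day, while most collagens lie near 0 on days 11 and 12 and to the left on day 13.

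Among the glycoproteins, Fn1 encodes fibronectin, which links cells to the matrix through integrins. Its signals in GFP+ cells were 5.89, 6.61 and 5.93 on days 11, 12 and 13, against 7.43, 8.30 and 7.87 in GFP- cells. Every GFP+ array lay below every GFP- array, and in both fractions day 12 was the highest day. The means were 6.14 ± 0.40 in GFP+ cells and 7.87 ± 0.43 in GFP- cells (SD, n = 3 each), and the difference was -1.72 (standard error 0.15, limma adjusted p = 0.0243). The daily differences were -1.54, -1.69 and -1.94. The day 13 GFP- signal of Fn1 was 0.01 above the mean of the other GFP- arrays. The call was lost when the pairing by day was dropped, the fit with no replicate block (adjusted p = 0.0652), without day 13 (adjusted p = 0.0525) and under 4 further alternatives (adjusted p = 0.0626 to 0.359), while the difference stayed between -1.62 and -1.89 under every alternative run.

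Sparc encodes osteonectin, a calcium-binding protein that binds collagen. Its signals were 9.59, 8.77 and 9.75 in GFP+ cells on days 11, 12 and 13, against 9.03, 9.60 and 8.94 in GFP- cells. The daily differences were 0.56, -0.83 and 0.80, so GFP+ cells were higher on days 11 and 13 and lower on day 12, and the mean difference of 0.18 did not pass the test (adjusted p = 0.82). Postn, which encodes periostin, had 4.61, 4.51 and 4.64 in GFP+ cells against 4.71, 4.49 and 5.03 in GFP- cells, and only the last of these stood off the low end. Dcn, which encodes the collagen-binding proteoglycan decorin, had 4.73, 4.54 and 4.63 in GFP+ cells against 4.81, 4.80 and 5.21 in GFP- cells. The fractions of Dcn did not overlap, but the difference was only -0.08 on day 11 and the mean difference of -0.31 did not pass (adjusted p = 0.439). Bgn (biglycan), Lum and Fbn2 (fibrillin-2) had mean differences of -0.10, -0.07 and -0.28, none past the test.

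Laminins are trimers of an alpha, a beta and a gamma chain, and the 2 beta chains measured lay in opposite directions. Lamb2, the beta 2 chain, had 5.86, 5.82 and 5.64 in GFP+ cells on days 11, 12 and 13, against 6.28, 6.84 and 6.84 in GFP- cells. All GFP+ arrays were below all GFP- arrays, and the gap was wider on days 12 and 13 than on day 11. The means of 5.78 ± 0.12 in GFP+ cells and 6.65 ± 0.32 in GFP- cells differed by -0.88 (standard error 0.19, adjusted p = 0.101), 1.84-fold lower. Without day 11 the difference was -1.11 and passed (adjusted p = 0.0387), whereas it was -0.81 without day 12 (adjusted p = 0.0824) and -0.72 without day 13 (adjusted p = 0.191), and did not pass. Lamb1, the beta 1 chain, had 6.63, 6.23 and 6.76 in GFP+ cells against 5.95, 5.45 and 6.45 in GFP- cells. GFP+ cells were higher on each day, by 0.67, 0.79 and 0.31, although the day 13 GFP- array lay above the day 12 GFP+ array. The mean difference of Lamb1 was 0.59 (standard error 0.16, adjusted p = 0.15), the largest positive one among the members.

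The RefSeq windows of the beta chains, from 250 bases before to 50 bases after the annotated start in the GRCm38.p6 assembly, are printed because the genes lay in opposite directions. Of the 32 members, 21 matched an entry of that table, with 24 windows. Fn1 had none. Capitals mark GGGCGG, the core of the GC box that SP1 factors bind, and CCAAT, the box bound by NF-Y, on either strand. Lamb1 lies at chr12:31265043-31265342 on the + strand and Lamb2 at chr9:108479612-108479911 on the + strand.
Lamb1: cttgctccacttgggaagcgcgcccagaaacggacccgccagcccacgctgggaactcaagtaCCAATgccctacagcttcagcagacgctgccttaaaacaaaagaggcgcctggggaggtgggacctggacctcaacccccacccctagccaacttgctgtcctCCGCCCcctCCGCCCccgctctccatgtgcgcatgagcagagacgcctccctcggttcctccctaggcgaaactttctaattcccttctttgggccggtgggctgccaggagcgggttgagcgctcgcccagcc
Lamb2: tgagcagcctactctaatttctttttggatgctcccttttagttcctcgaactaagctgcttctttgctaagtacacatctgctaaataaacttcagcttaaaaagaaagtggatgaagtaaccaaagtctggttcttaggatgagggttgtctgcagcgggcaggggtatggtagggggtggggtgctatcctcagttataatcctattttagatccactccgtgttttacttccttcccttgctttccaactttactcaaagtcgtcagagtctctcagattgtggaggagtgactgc
The window of Lamb1 held GGGCGG 2 times, both on the opposite strand, and CCAAT 1 time, with 63.7% G and C. That of Lamb2 held neither motif, with 44.0% G and C. Over the members, GGGCGG was in 16 of 24 windows and in 35.7% of the 32851 windows of the table, CCAAT in 9 of 24 and 37.4%, and TATAAA, the TATA box, in 3 of 24 and 13.6%. These are matches of letters in a window only.

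The alpha chains and the gamma chain differed less between the fractions. Lama5, an alpha chain of basement membranes from early in development, had 5.72, 5.52 and 5.55 in GFP+ cells against 5.81, 6.05 and 6.11 in GFP- cells, and Lama4, an alpha chain of vessels, had 4.56, 4.58 and 4.57 against 4.81, 4.77 and 4.73 in GFP- cells. Neither overlapped between the fractions, and neither difference (-0.39 and -0.20) passed the test (adjusted p = 0.322 and 0.559). Lama1, the alpha chain of the embryonic laminin, had 7.12, 6.48 and 7.23 in GFP+ cells against 6.59, 6.77 and 6.90 in GFP- cells. Lamc1, the gamma chain of most laminins, had 7.40, 6.83 and 7.39 in GFP+ cells against 6.81, 7.32 and 7.43 in GFP- cells. Both were higher in GFP+ cells on day 11 and lower on day 12, and only Lama1 was higher again on day 13. Lama2, the alpha chain of muscle laminin, differed by 0.07.

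Of the linkers, Hspg2 encodes perlecan, a heparan sulfate proteoglycan of basement membranes. Its signals of 6.15, 6.05 and 6.17 in GFP+ cells and 6.81, 6.85 and 6.78 in GFP- cells varied little within each fraction. The difference was -0.66, -0.80 and -0.61 by day and -0.69 on average (standard error 0.14, adjusted p = 0.084), 1.61-fold lower in GFP+ cells. Nid1, nidogen-1, which joins the laminin and collagen IV networks, had 8.15, 6.86 and 7.90 in GFP+ cells against 7.25, 7.49 and 7.32 in GFP- cells. It was higher in GFP+ cells on days 11 and 13 and lower on day 12, as Sparc was, and its mean difference of 0.29 did not pass (adjusted p = 0.704). Nid2, nidogen-2, had 5.16, 4.998 and 4.94 in GFP+ cells against 5.17, 5.15 and 5.44 in GFP- cells, a difference of -0.22 (adjusted p = 0.592).

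**Figure D2:**
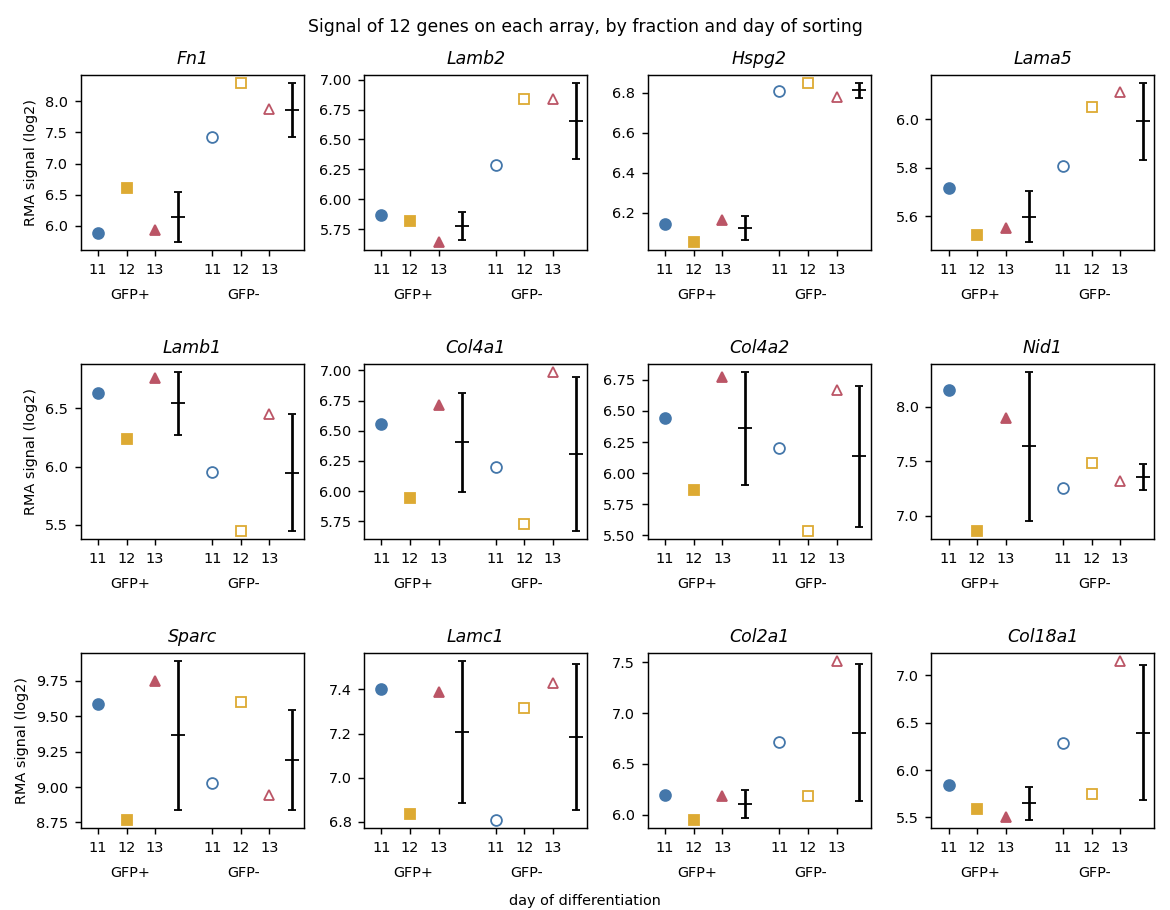
Log2 RMA signal (y axis, scaled per gene) of 12 genes on each array by day of differentiation (x axis), with GFP+ arrays on the left (filled) and GFP- arrays on the right (open) and the mean ± SD of 3 arrays beside each. Fn1, Lamb2, Hspg2 and Lama5 separate by fraction, Nid1 and Sparc have their lowest array on day 12 of GFP+ cells, and Col2a1 and Col18a1 have their highest on day 13 of GFP- cells.

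In the genes of collagen IV, the network collagen of basement membranes, signals differed more between days than between fractions, with no test of the days. Col4a1 and Col4a2 encode the 2 widespread chains of collagen IV. Col4a1 had 6.55, 5.94 and 6.72 in GFP+ cells on days 11, 12 and 13, against 6.20, 5.73 and 6.99 in GFP- cells. Col4a2 had 6.44, 5.87 and 6.77 in GFP+ cells against 6.20, 5.53 and 6.67 in GFP- cells. In both genes and both fractions day 12 was the lowest and day 13 the highest, and the mean differences between the fractions were 0.10 and 0.22 (adjusted p = 0.812 and 0.528).

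These 2 genes are neighbours on mouse chromosome 8 and are read from opposite strands, and their windows are printed because their signals moved together. Col4a1 lies at chr8:11312777-11313076 on the - strand and Col4a2 at chr8:11312555-11312854 on the + strand. Capitals mark the 78 bases that both windows share, chr8:11312777-11312854, which read as reverse complements.
Col4a1: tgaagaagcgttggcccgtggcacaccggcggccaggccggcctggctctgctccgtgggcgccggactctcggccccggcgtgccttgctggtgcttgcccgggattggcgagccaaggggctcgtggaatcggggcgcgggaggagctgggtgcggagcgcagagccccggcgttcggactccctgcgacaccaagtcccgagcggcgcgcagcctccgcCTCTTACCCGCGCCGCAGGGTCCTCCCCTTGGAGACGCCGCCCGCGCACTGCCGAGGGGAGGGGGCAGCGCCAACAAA
Col4a2: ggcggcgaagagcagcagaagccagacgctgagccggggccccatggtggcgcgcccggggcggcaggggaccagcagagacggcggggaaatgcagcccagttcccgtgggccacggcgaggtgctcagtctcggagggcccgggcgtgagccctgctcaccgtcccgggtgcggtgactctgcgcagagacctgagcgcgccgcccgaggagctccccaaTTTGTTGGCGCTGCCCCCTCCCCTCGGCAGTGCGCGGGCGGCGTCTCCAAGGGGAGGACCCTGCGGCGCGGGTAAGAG
The shared bases held 1 GGGCGG on the strand of Col4a2. The other neighbouring pairs among the members, with no protein-coding gene between them in RefSeq, were Col3a1 with Col5a2 on chromosome 1, Col6a1 with Col6a2 and Dcn with Lum on chromosome 10. Col6a1 and Col6a2, chains of the microfibrillar collagen VI, had daily differences of -0.22, 0.09 and -0.72 and of 0.10, -0.01 and -0.52. Col3a1 and Col5a2 did not move alike: Col3a1, of type III collagen, differed by 0.07, 0.09 and -0.81, and Col5a2, of type V, by -0.29, -0.33 and -0.25.

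Col18a1 encodes collagen XVIII, a basement membrane proteoglycan from which endostatin is cleaved. It had 5.85, 5.59 and 5.51 in GFP+ cells, against 6.28, 5.75 and 7.16 in GFP- cells, and only the day 13 GFP- array stood far from the rest. The difference was -0.75 (standard error 0.30, adjusted p = 0.315), and the day 13 value alone was -1.65. Without day 13 it was -0.30 (adjusted p = 0.428). Of the fibrillar collagens, Col2a1, the collagen of cartilage, had 6.19, 5.95 and 6.19 in GFP+ cells against 6.72, 6.18 and 7.52 in GFP- cells. It was lower in GFP+ cells on every day, with differences of -0.53, -0.23 and -1.33, and the fractions overlapped. Its mean difference of -0.70 did not pass (standard error 0.23, adjusted p = 0.235), and without day 13 it was -0.38 (adjusted p = 0.317). Col5a2 had 5.29, 5.09 and 5.33 in GFP+ cells against 5.57, 5.42 and 5.58 in GFP- cells, without overlap (difference -0.29, adjusted p = 0.389). Col1a1, the main chain of type I collagen, had 6.26, 5.82 and 6.12 in GFP+ cells against 6.19, 5.81 and 6.79 in GFP- cells, so that the fractions differed by 0.07 and 0.01 on days 11 and 12. The mean differences of Col1a2, Col3a1, Col5a1 and Col11a1 ran between -0.22 and 0.01. Without day 13 the mean differences of Col1a1, Col1a2, Col3a1, Col5a1 and Col6a2 were above 0 (0.04, 0.12, 0.08, 0.07 and 0.05), where with day 13 they were below 0.

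Neither transcription factor of mesenchyme passed the test. Twist1, which is active in neural crest and mesoderm derived mesenchyme, had 5.20, 4.98 and 4.98 in GFP+ cells against 5.36, 4.89 and 6.04 in GFP- cells. Its only difference over 2-fold was that of day 13 (-1.06), and its mean difference of -0.38 did not pass (adjusted p = 0.547) and was -0.035 without day 13. Prrx1, a homeobox factor of limb and craniofacial mesenchyme, differed by -0.35, -0.16 and -0.20 (mean -0.23, adjusted p = 0.509).

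The study counted genes past 2-fold, and by that count, with no test, Fn1 was the 1 member of 31 lower in GFP+ cells in the mean, where 1.02% of all genes were, and 0 were higher, where 1.97% were. By day, 1 member was over 2-fold lower on day 11 (Fn1), where 1.3% of all genes were. On day 12 it was 2 members (Fn1 and Lamb2), where 2.43% were, and on day 13 it was 5 (Fn1, Lamb2, Col2a1, Col18a1 and Twist1), where 2.29% were. None was over 2-fold higher on any day, where 1.85%, 1.48% and 9.18% of all genes were on days 11, 12 and 13. Differences below 0 were seen in 17, 20 and 25 of 31 members on days 11, 12 and 13, where 51.6%, 51.3% and 56.0% of all genes had them. The median difference of the members was -0.08, -0.16 and -0.42 by day, and that of all genes was -0.01, -0.005 and -0.07.

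The day 13 GFP- array was then set against the GFP- arrays of days 11 and 12. All 5 basement membrane and type VI collagens and all 7 fibrillar collagens lay above the mean of the other GFP- arrays, with medians of 0.80 and 0.62. Of all genes, 52.6% lay above that mean. Against the day 11 GFP- array alone 0 members were over 2-fold higher, and Col5a2 was only 0.01 higher. There is 1 array on one side and 2 of other days on the other, so no test was made. Col18a1 was 1.14 higher (7.16 on day 13, against 6.28 and 5.75 on days 11 and 12), Col2a1 was 1.07 higher and Col4a1 was 1.03 higher. These were the 3 members over 2-fold, where 1.59% of all genes were over 2-fold higher, and 0 members were over 2-fold lower, where 8.2% of all genes were. Twist1 was 0.91, Col3a1 0.83, Col1a1 0.79 and Lamb1 0.75 higher.

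Of the 31 members, 25 lay above the mean of the other GFP- arrays, where 52.6% of all genes did, and 21 lay above both of them, where 43.0% did. On 17 the day 13 GFP- array was the highest of the 6 arrays, where 37.9% of all genes had that. The median departure was 0.29 for the members and 0.03 for all genes. By role it was 0.51 for the transcription factors, 0.24 for the laminins, 0.01 for the glycoproteins and -0.05 for the linkers. Hspg2, Nid1 and Fn1 departed by -0.05, -0.05 and 0.01, and Sparc by -0.37. In GFP+ cells the same difference of day 13 from days 11 and 12 had a median of 0.07 over the members, with 18 of 31 above 0, where 50.6% of all genes were, and 0 over 2-fold higher, where 0.0552% were. Its highest values were 0.62 for Col4a2, 0.57 for Sparc and 0.47 for Col4a1.

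The departure depended on the level of a gene, so it was also read among genes of like signal. The genes were divided into 5 equal groups by their mean signal in GFP+ cells, which leaves out the signal of the day 13 GFP- array itself. That array still counted in the choice of the brightest probe set, and whether the arrays were normalized jointly is not stated. The median departure over all genes was 0.24, 0.27, 0.10, -0.36 and -0.76 from the dimmest to the brightest group. The members of the same groups, 4, 5, 11, 8 and 3 in number, had medians of 0.22, 0.24, 0.57, 0.77 and -0.05. In group 4, the second brightest, 8 of 8 members lay above the median of all genes of their group, in the brightest group 3 of 3, in the middle group 9 of 11, and in the other two 2 of 4 and 2 of 5. Dim members thus departed about as far as other dim genes, and members of middle and higher signal lay above genes of like signal. The size hung on the scaling. With each array centred on its median, 0 members and 0.913% of all genes were over 2-fold higher, and the median departure was 0.14 (-0.11 over all genes). After a further quantile normalization, 11 members and 4.11% of all genes were over 2-fold higher, and the median was 0.69 (-0.02 over all genes). Against day 11 alone 0 members were over 2-fold higher, and against day 12 alone 7 were.

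**Figure D3:**
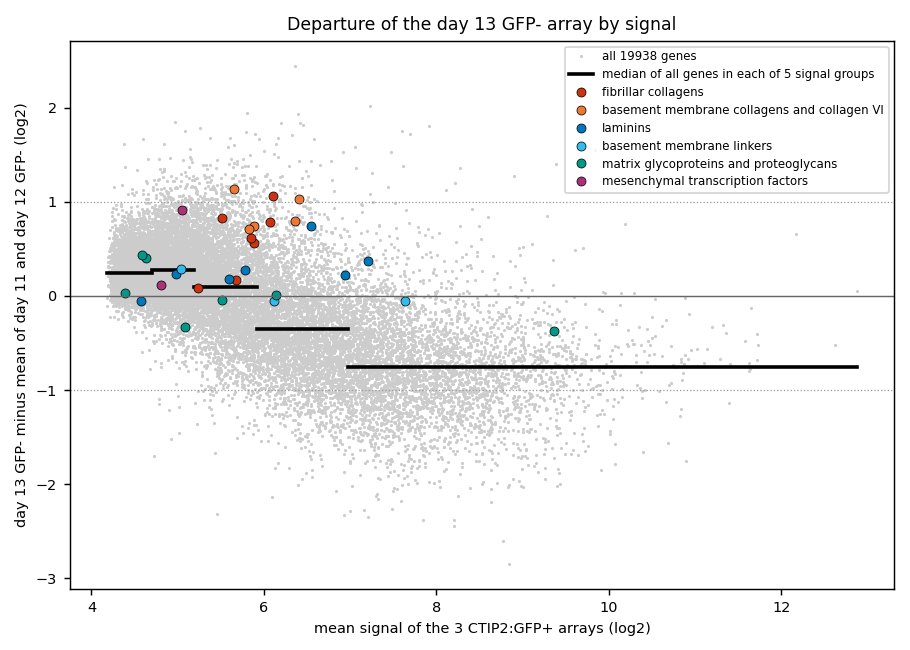
Departure of the day 13 GFP- array from the mean of the day 11 and day 12 GFP- arrays (y axis, log2) against the mean signal of the 3 GFP+ arrays (x axis, log2), for all 19938 genes (grey), the medians of 5 equal signal groups (black bars) and the 31 members coloured by role. The collagens lie between 0.09 and 1.14, mostly above the bar of their group.

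Day 12 was the low day for many members. The day 12 arrays also had the lowest median signal of their fractions, 5.34 in GFP+ cells and 5.32 in GFP- cells. The counts that follow were not repeated after centring of the arrays. The day 12 GFP+ array was below both other GFP+ arrays in 22 of 31 members, where 45.7% of all genes had that, and the day 12 GFP- array was below both other GFP- arrays in 19, where 45.4% did. In 15 members it was the lowest in both fractions, where 32.5% of all genes were, and those included Col4a1, Col4a2, Lamb1, Col1a1 and Col2a1. Nid1, Sparc, Lama1 and Lamc1 were among those lowest on day 12 in GFP+ cells only. Fn1 and Fbn2 were highest on day 12 in both fractions. No test was made, since each day had 1 array per fraction.

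The remaining genes of the same pathways were read from lists by function. The methods' t-test called 0 genes in either direction after adjustment, so the calls below are those of limma. Of all genes, limma called 0.797% higher and 0.567% lower, and 9.58% and 5.96% at an unadjusted p under 0.05. These shares stand beside the counts of every list below. Of 28 other collagens, 0 were higher and 0 lower in GFP+ cells (limma; 0 and 1 at an unadjusted p under 0.05), and all 28 lay above the mean of the other GFP- arrays on day 13, with a median of 0.58, 27 of them above both arrays. Of all genes, 52.6% lay above that mean and 43.0% above both arrays. From the dimmest signal group to the second brightest, 90.5%, 81.5%, 58.7% and 25.1% of genes lay above that mean. Their medians were 0.24, 0.27, 0.10 and -0.36. Of the 28 collagens 0 were in the brightest group, and their split over the other groups was not counted. Of 15 other laminin and basement membrane genes, 0 were higher and 0 lower (0 and 5 unadjusted). Of 20 enzymes that modify and crosslink collagen, 0 were higher and 1 was lower (0 and 9 unadjusted), and 12 lay lower on all 3 days, as did 21.4% of all genes. The 1 that passed was P4ha3, a collagen prolyl 4-hydroxylase subunit, at 5.49 ± 0.09 in GFP+ cells and 7.50 ± 0.32 in GFP- cells (difference -2.01, adjusted p = 0.0243). Of 20 matrix proteases and inhibitors, 0 were higher and 1 was lower (3 and 1 unadjusted), the metalloproteinase inhibitor Timp3 (-1.28, adjusted p = 0.0331).

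Of 22 matrix receptors, 1 was higher, Sdc3, a syndecan of neurons (0.98, adjusted p = 0.0442), and 1 lower, the integrin subunit Itgb5 (-1.72, adjusted p = 0.0248). At an unadjusted p under 0.05, 2 were higher and 10 lower. Of the 22, 15 lay lower on all 3 days, where 21.4% of all genes did, with a median difference of -0.44 over the list and -0.05 over all genes. Itgb5 had 5.99 ± 0.31 in GFP+ cells and 7.71 ± 0.58 in GFP- cells. Of 22 genes of the neural extracellular matrix, 0 were higher and 2 were lower (7 and 5 unadjusted), tenascin C (Tnc, -1.51, adjusted p = 0.0431) and Sparcl1, a glial relative of Sparc (-1.15, adjusted p = 0.0447). Of 25 other interstitial glycoproteins, 0 were higher and 1 was lower (0 and 8 unadjusted), Ccn1 (-0.97, adjusted p = 0.0446), which encodes a secreted integrin ligand. Fn1 was thus not the only matrix gene lower in GFP+ cells past the test, but none of the genes that passed was a collagen or a laminin.

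Markers of the cell types that could carry these genes were read beside them. Of 13 radial glial and progenitor genes, 5 were lower in GFP+ cells and 0 higher (10 and 0 unadjusted), and their mean signal was 7.32 to 7.55 on the GFP+ arrays and 8.30 to 8.69 on the GFP- arrays. Slc1a3, the glial glutamate transporter, and the receptor gene Notch1 differed by -2.72 and -1.89. Of 14 neuronal genes, 3 were higher and 0 lower (11 and 0 unadjusted), with mean signals of 9.15 to 9.51 on the GFP+ arrays and 7.52 to 8.60 on the GFP- arrays. On day 13 all 14 neuronal genes lay below the mean of the other GFP- arrays, with a median of -1.14. Of these, 13 are in the brightest of 5 signal groups, where the median over all genes was -0.76 and 6.95% of genes lay above that mean. Syt1 and Myt1l, a synaptic calcium sensor and a neuronal transcription factor, differed by 2.34 and 1.94. The fibronectin difference therefore lay in the same direction as that of the progenitor genes, and their part in it was not tested.

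In the lists of non-neural cells, 2 genes in all passed the test. Of 24 fibroblast and mesenchyme genes, 0 were higher and 0 lower (2 and 1 unadjusted), with mean signals of 5.23 to 5.40 on the GFP+ arrays and 5.22 to 5.61 on the GFP- arrays. On day 13, 22 of these 24 lay above the mean of the other GFP- arrays, with a median of 0.35. Of all genes, 52.6% did. In signal groups 2 and 3, counted from the dimmest, 81.5% and 58.7% of genes did, with medians of 0.27 and 0.10. Of 14 genes of parietal and visceral endoderm, the yolk sac lineages of which the parietal one makes much basement membrane, 0 were higher and 0 lower (0 and 0 unadjusted). Their mean signal was 5.20 to 5.45 on the GFP+ arrays and 5.18 to 5.76 on the GFP- arrays, lowest on day 12 in both fractions, and 13 of 14 lay above the mean of the other GFP- arrays on day 13 (median 0.55). The shares of all genes just given stand beside that count too. Of 7 neural crest genes, 0 were higher and 0 lower (0 and 1 unadjusted), and all 7 had a mean difference below 0 (median -0.29), as had 59.0% of all genes. Of 11 cartilage genes, 0 were higher and 1 was lower (1 and 1 unadjusted), Sox9 (-1.36, adjusted p = 0.0272), which is also expressed by neural progenitors. Of 14 genes of endothelium and pericytes, 0 were higher and 1 was lower (0 and 2 unadjusted), Notch3 (-1.29, adjusted p = 0.0327), and 8 lay lower on all 3 days, as did 21.4% of all genes. The mean signals of the fibroblast, cartilage and endothelium lists were also lowest on day 12 in both fractions. On day 13, 10 of 11 cartilage genes lay above the mean of the other GFP- arrays (median 0.43). So did 12 of 14 endothelium genes (median 0.27) and 6 of 7 neural crest genes (median 0.38). The shares of all genes given above stand beside these counts too. The part of any of these cell types, or of feeder cells carried over, in the member signals was not tested.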

How the data were processed

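Sorted GFP+ and GFP- cells were profiled on 6 arrays of the GeneChip Mouse Gene 1.0 ST design. The authors calculated the deposited log2 signals with RMA16 in the GeneSpring software. For the annotation version, any filter and a joint normalization, the sources used here give nothing. Precision is limited by the number of arrays. Of 28853 probe sets, 21789 had 1 symbol, 1621 had several and 5443 had none, and Entrez IDs matched 21698 of the first to RefSeq (GRCm38.p6) with 0 symbols changed. No dim probe set was removed.

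In R 4.3.3 a limma 3.58.1 model of fraction and day (both factors) was fitted with eBayes, adjusted by Benjamini-Hochberg over 19938 genes at a threshold of 0.05. The script was tested on simulated data. The study's 2-fold threshold was applied as a count with no test. The day in the labels paired the fractions. Deviations from the fraction means correlated across genes between the GFP+ and GFP- arrays of day 11, 12 and 13 at 0.112, 0.558 and 0.368. A change with the day or a shift of whole arrays can also give such values. They therefore do not tell whether the fractions of a day were sorted together. Alternatives were no replicate block, each day left out, no block with the day 13 GFP- array removed, centring on array medians, another quantile normalization, averaging of probe sets, a filter on dim probe sets, eBayes with trend and robust settings, and the methods' t-test, unpaired.

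The members and the gene lists were chosen with earlier results of these data known. Values on every array are given for members past the adjusted threshold or over 2-fold in the mean, for those whose fractions do not overlap, and, in each role group, for the member with the highest mean signal and the member with the largest day 13 GFP- departure. Of each other list, up to 2 genes per direction with the largest difference past the test are named. Col4a2, Lama1 and Col1a1, given on every array beyond that rule, and the windows printed were chosen after their values were seen.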

Additional observations from a re-analysis of the deposited data

Results flagged for a closer look

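For 2 members the difference between the fractions changed sign between days by a large amount on both sides. Nid1 was 0.90 and 0.58 higher in GFP+ cells on days 11 and 13 and 0.63 lower on day 12 (-0.63), a spread of 1.53 between the daily differences. Sparc was 0.56 and 0.80 higher in GFP+ cells on days 11 and 13 and differed by -0.83 on day 12, a spread of 1.64. The difference between days was not tested, since each day had 1 array per fraction. Over all genes, 412 (2.07%) had daily differences of both signs that each passed 0.5.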

How the results depend on the processing

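Counts of genes past the test were 159 higher and 113 lower in GFP+ cells as reported, with 0 members higher and 1 lower. They were 84 and 41 with no replicate block (0 members lower), 0 and 0 with median centring (0 members lower), 52 and 99 after a further quantile normalization (0 members lower), 342 and 208 with the filter on dim probe sets, 549 and 510 with trended and robust eBayes (2 members lower, Fn1 and Lamb2) and 0 and 0 by the methods' t-test (966 and 790 unadjusted; 0 members lower after adjustment). Leaving out each day in turn gave 0 to 930 higher and 0 to 229 lower, with 0 to 2 members lower past the test and 1 to 2 over 2-fold lower, and the counts of 0 were those without day 13.
The adjusted p of Fn1 was 0.0652 with no replicate block, 0.0742 when the day 13 GFP- array was also removed (where Hspg2 passed at 0.0415), 0.0981 with median centring, 0.0626 after quantile normalization and 0.359 by the t-test, and ran from 0.00043 to 0.0525 over the days left out. Differences that changed sign were those of Col1a1 (0.066), Col1a2 (0.11), Col3a1 (0.061), Col5a1 (0.028) and Col6a2 (0.094) with no block and the day 13 GFP- array removed, and of Col4a1 (-0.095), Lamc1 (-0.19), Sparc (-0.070) and Lum (0.013) after quantile normalization. Over the days left out, the difference of Col1a1 ran from -0.33 to 0.040, of Col1a2 from -0.19 to 0.12, of Col3a1 from -0.37 to 0.078, of Col5a1 from -0.36 to 0.074, of Col6a2 from -0.26 to 0.048, of Col11a1 from -0.046 to 0.051, of Col4a1 from -0.031 to 0.28, of Lama2 from -0.034 to 0.17, of Lamc1 from -0.26 to 0.28, of Nid1 from -0.022 to 0.74, of Sparc from -0.14 to 0.68 and of Bgn from -0.32 to 0.043. In 308 member values the direction and the side of the threshold were kept, in 22 the direction changed, in 3 a call was gained and in 6 a call was lost. Alternatives that changed only the test, such as the fit with no replicate block, left the differences as they were, so no direction could change there. The departure of the day 13 GFP- array (3 members over 2-fold, median 0.29) gave 0 and 0.14 with median centring and 11 and 0.69 after quantile normalization, and 0 to 7 members over 2-fold and medians of 0.30 to 0.40 against a single other GFP- array. The cause was not tested.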

Other observations

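A mesenchymal receptor outside the members lay in the other direction from most matrix genes, and it was chosen after its values were seen. Pdgfra, the PDGF receptor alpha of mesenchyme and of oligodendrocyte precursors, had 6.85, 7.27 and 7.25 in GFP+ cells on days 11, 12 and 13, against 5.34, 5.74 and 6.51 in GFP- cells. All GFP+ arrays lay above all GFP- arrays, the difference was 1.26 (standard error 0.20) and it did not pass the test (limma, adjusted p = 0.0573). The list of 24 fibroblast and mesenchyme genes went the other way, with a median difference of -0.11. In that list 18 genes had a mean difference below 0, as had 59.0% of all genes. The endoderm genes Tinagl1 and Gata4, also named outside the selection rule, had their lowest array on day 12 in both fractions, as Col4a1 and Col4a2 did. Of all genes, 32.5% had that pattern. The mean signals of the fibroblast, cartilage, endothelium and other collagen lists had it as well. Tinagl1 had 6.76, 6.05 and 6.81 in GFP+ cells against 6.24, 5.59 and 6.85 in GFP- cells, and Gata4 had 6.26, 5.52 and 6.34 in GFP+ cells against 5.92, 5.48 and 6.46 in GFP- cells. Their differences between the fractions were 0.31 and 0.09 (adjusted p = 0.472 and 0.811). In the list of 14 endoderm genes the median difference was -0.10, with 10 genes below 0. The source of the collagen IV signal was not tested.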
